A study of Homo sapiens with 4 samples.

Results

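Host genes of B-cell microRNAs were followed by name in a table of 61267 genes: MIR155HG, MIR17HG, MIR22HG, MIR4435-2HG and DLEU2. The 5 members were taken as the rows with those symbols, and all 5 were found and passed the filter on low counts, which left 18368 genes tested. The data were RNA-seq read counts from SU-DHL-2, an established human diffuse large B-cell lymphoma line, labelled as wild type. Of its 4 libraries, 2 came from cells given vehicle and 2 from cells given 10 µM Spautin-1, known as a small-molecule inhibitor of the deubiquitinases USP10 and USP13, for 36 h. No duration is given for the vehicle cells in the labels, and the labels do not say whether the 2 libraries of a group came from separate cultures. All p-values therefore measure only the spread between these libraries, which may be technical, and all values come from 1 cell line. Where 1 library was left out, p-values and calls rest on the spread within the other group alone.

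A microRNA host gene is transcribed as a long RNA from which the nuclear enzyme Drosha, with DGCR8, cuts a short hairpin. Dicer then trims the hairpin to a mature microRNA, and bases 2 to 8 of that microRNA, the seed, pair with messenger RNAs that it represses. MIR155HG (also called BIC) was first known as an integration site in avian lymphomas and is a transcript of activated B cells. MIR17HG carries the miR-17-92 cluster, which is amplified in some lymphomas. DLEU2 carries miR-15a and miR-16-1 in a region of chromosome 13 that is often deleted in chronic lymphocytic leukaemia. MIR22HG carries miR-22, and MIR4435-2HG is a long non-coding RNA with a near copy, CYTOR, elsewhere on the same chromosome. The counts here are of the host transcripts. Mature microRNAs were not measured.

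The mature sequences of the hosted microRNAs, from RefSeq (GRCh38.p14), are shown 5′ to 3′. Matches to their seeds, except that of miR-4435, were counted in the reported targets described later. The seed is in capitals.
miR-155-5p: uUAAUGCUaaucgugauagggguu
miR-17-5p: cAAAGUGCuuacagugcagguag
miR-20a-5p: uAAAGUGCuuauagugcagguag
miR-18a-5p: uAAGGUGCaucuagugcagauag
miR-19a-3p: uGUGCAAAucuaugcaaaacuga
miR-19b-3p: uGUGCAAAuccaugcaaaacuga
miR-92a-3p: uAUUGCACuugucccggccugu
miR-22-3p: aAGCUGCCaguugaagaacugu
miR-4435: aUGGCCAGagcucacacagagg
miR-15a-5p: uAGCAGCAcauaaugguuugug
miR-16-5p: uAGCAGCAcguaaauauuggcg
The 11 sequences fell into 8 seeds. miR-17-5p and miR-20a-5p shared AAAGUGC, miR-19a-3p and miR-19b-3p shared GUGCAAA, and miR-15a-5p and miR-16-5p shared AGCAGCA, while each of the other 5 had a seed of its own.

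Total counts ranged from 34115420 to 38362526 per library, and 25154 to 25683 genes had a read. Between 74.3% and 76.8% of the counts from 1 to 20 were even numbers, and the sources used here do not say whether the mates of a read pair were counted singly. Of 10 B-cell markers 9 were tested, VPREB3 was at 0 in every library, and 3 were called higher with Spautin-1 (MS4A1 by 0.59, CD22 by 0.86 and CD37 by 0.53 on the log2 scale). CD37 was not called without Spautin-1 library 2 (adjusted p = 0.0644, edgeR). The summed B-cell marker level was 760 to 841 CPM (counts scaled to a common library size) in vehicle and 1109 to 1144 CPM with Spautin-1, and its part in the results was not tested. Summed T and NK, myeloid, and fibroblast and endothelial markers stayed at or below 1.55 CPM in every library. Epithelial markers, nearly all EPCAM, summed to 47.6 to 54.2 CPM in vehicle and 52.4 to 57.2 CPM with Spautin-1. None of these markers was called.

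Spautin-1 and vehicle libraries differed in 4 of the 5 host genes: MIR155HG and MIR4435-2HG were higher, MIR17HG and MIR22HG were lower, and DLEU2 was not called. A gene was called at an adjusted p under 0.05 in edgeR's quasi-likelihood test, adjusted by Benjamini-Hochberg over all 18368 genes. By that rule 22.0% of all genes tested were called, 11.5% higher and 10.5% lower, with a median log2 change of -0.01, so calls were common in these libraries. The 2 groups of libraries did not overlap for 4 of the 5 members, against 61.4% of all genes tested. In bulk RNA a lower level cannot be told apart from fewer cells that make the transcript.

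**Figure D1:**
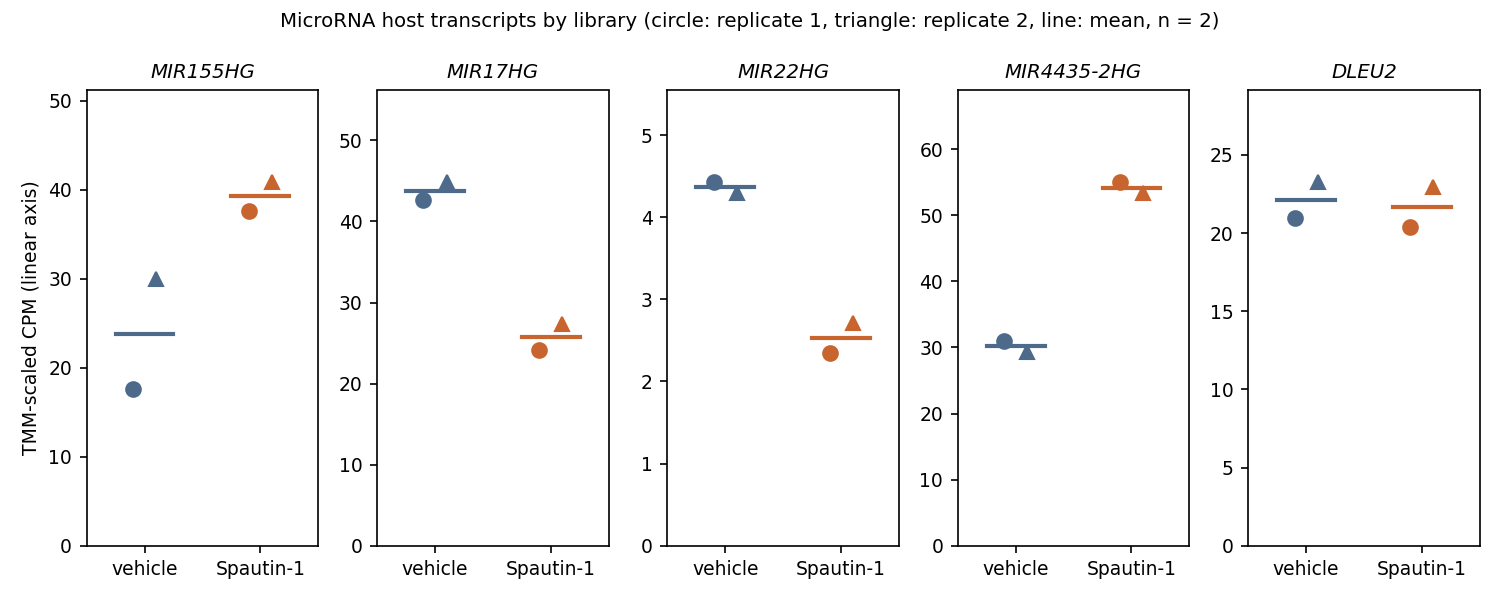
Normalised level of each of the 5 host genes (CPM, linear axes from 0, each with its own scale) in the vehicle and Spautin-1 libraries. Circles are replicate 1, triangles replicate 2, and lines the means of 2. MIR155HG and MIR4435-2HG lie higher with Spautin-1, MIR17HG and MIR22HG lower, and the DLEU2 libraries overlap.

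MIR155HG (chr21:25561810-25575168, GRCh38, plus strand, 4 exon blocks) stood at 17.6 and 30.0 CPM in the vehicle libraries and at 37.6 and 40.9 CPM in the Spautin-1 libraries. Both treated libraries were above both vehicle libraries, and vehicle library 2 was 1.70 times vehicle library 1, the widest replicate gap of the 5 members. The mean went from 23.8 ± 8.73 to 39.3 ± 2.31 CPM (SD, n = 2 each), a log2 change of 0.72 ± 0.20 (SE; 95% interval 0.28 to 1.15; 1.65-fold; adjusted p = 0.0231, edgeR). The size rested on the vehicle libraries, since the change was 0.39 without vehicle library 1 and 1.15 without vehicle library 2. It was not called without Spautin-1 library 2 (0.66, adjusted p = 0.0640, edgeR).

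MIR155, the hairpin gene that lies wholly in a MIR155HG exon, has its own row in the table. Its 65 bases collected 75 and 109 counts in vehicle and 143 and 171 with Spautin-1, so its libraries did not overlap either. The log2 change was 0.81 ± 0.27 (SE), close in size to that of the host, and missed the threshold (adjusted p = 0.0510, edgeR). The change stood at 1.02 without vehicle library 2 and at 0.97 without Spautin-1 library 1. It was 0.63 without vehicle library 1 and 0.62 without Spautin-1 library 2. Since the row lies wholly within a host exon, its reads cannot be told apart from reads of the host transcript. The nearest tested gene on the left, the non-coding LINC00158, lies 130109 bases away and fell by 1.09 on the log2 scale (adjusted p = 0.0120, edgeR), the other way from MIR155HG.

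MIR4435-2HG (chr2:111006015-111523376, GRCh38, minus strand, 44 exon blocks) had close replicates in both groups. It read 31.0 and 29.3 CPM in vehicle and 55.1 and 53.3 CPM with Spautin-1, 2 groups far from overlap. The mean went from 30.2 ± 1.15 to 54.2 ± 1.28 CPM (SD, n = 2 each), a log2 change of 0.85 ± 0.12 (SE; 95% interval 0.58 to 1.11; 1.80-fold; adjusted p = 0.000574, edgeR).

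CYTOR, the near copy of MIR4435-2HG on chromosome 2, also rose. Its libraries stood at 14.0 and 14.2 CPM in vehicle and at 28.5 and 27.9 CPM with Spautin-1, a log2 change of 1.0 ± 0.14 (SE; 2.00-fold; adjusted p = 0.000471, edgeR). The 2 genes share sequence: of the 14568 different 100-base stretches in 25 annotated MIR4435-2HG transcripts (GENCODE 29), 2077 (14.3%) also occur in a CYTOR transcript, which is 10.6% of the stretches of CYTOR. The sources used here do not say how reads that match both copies were counted, so the division of counts between the 2 genes is uncertain.

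BCL2L11 lies on the opposite strand inside the long span of MIR4435-2HG and shares 727 exonic bases with it. It encodes BIM, a pro-apoptotic BCL2-family protein and a reported target of miR-17-92. BCL2L11 stood at 19.1 and 16.2 CPM in vehicle and at 43.8 and 38.6 CPM with Spautin-1, a log2 change of 1.22 ± 0.14 (SE; 2.33-fold; adjusted p = 0.000137, edgeR). The sources used here do not name the strand setting of the counting, although the kit keeps the strand. Reads in the shared bases could therefore count for either gene or for both, and the 2 changes may not be independent. Of the 14 genes that overlap MIR4435-2HG, 6 were tested and 3 were called, all higher: BCL2L11, ENSG00000285016 (log2 change 1.62, adjusted p = 0.0129, edgeR) and ENSG00000227992 (1.04, adjusted p = 0.0497, edgeR). The last of these was lost under 9 of 14 other settings, among them leaving out vehicle library 1 (adjusted p = 0.0934), Spautin-1 library 1 (adjusted p = 0.218) or Spautin-1 library 2 (adjusted p = 0.125, all edgeR). Of all genes tested 22.0% were called. ENSG00000285016 shares 297 exonic bases with MIR4435-2HG on the same strand, and ENSG00000227992 lies in an intron of it on that strand. Reads counted for them may come from the host transcript, so these calls may not be independent either. The nearest tested genes outside the span, BUB1 and ANAPC1, had log2 changes of 0.04 and -0.04 and overlapping groups.

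The start regions of MIR155HG, MIR4435-2HG and CYTOR are shown because these 3 genes were higher and each window holds the letters TGANTCA, a motif bound by AP-1 factors. Windows run from 250 bases before to 50 bases after the RefSeq start (GRCh38.p14), 5′ to 3′ on the gene's strand, with each match in capitals. They lie at chr21:25561895-25562194 (plus), chr2:111495112-111495411 (minus) and chr2:87455177-87455476 (plus).
MIR155HG: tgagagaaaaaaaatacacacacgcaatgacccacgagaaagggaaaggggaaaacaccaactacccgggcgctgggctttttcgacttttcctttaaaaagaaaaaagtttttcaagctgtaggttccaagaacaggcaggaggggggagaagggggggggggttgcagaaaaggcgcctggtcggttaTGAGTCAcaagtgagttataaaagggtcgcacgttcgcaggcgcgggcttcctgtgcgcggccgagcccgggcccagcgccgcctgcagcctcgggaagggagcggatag
MIR4435-2HG: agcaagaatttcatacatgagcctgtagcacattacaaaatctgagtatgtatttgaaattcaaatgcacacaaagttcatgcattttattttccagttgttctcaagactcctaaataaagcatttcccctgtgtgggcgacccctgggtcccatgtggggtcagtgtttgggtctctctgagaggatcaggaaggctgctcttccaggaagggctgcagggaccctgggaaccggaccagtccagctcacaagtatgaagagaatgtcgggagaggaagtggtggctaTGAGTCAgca
CYTOR: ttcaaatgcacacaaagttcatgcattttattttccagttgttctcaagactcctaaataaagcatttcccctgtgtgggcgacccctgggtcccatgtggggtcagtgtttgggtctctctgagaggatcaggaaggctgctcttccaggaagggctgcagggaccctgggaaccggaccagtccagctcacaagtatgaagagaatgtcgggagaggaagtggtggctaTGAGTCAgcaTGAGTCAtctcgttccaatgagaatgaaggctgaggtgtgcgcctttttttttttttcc
With the start counted as base 1, the match began at base -60 in MIR155HG, at base 41 in MIR4435-2HG and at bases -19 and -9 in CYTOR. The last pair of windows share an unbroken run of 241 bases, so their matches are not independent. On either strand, 7.71% of 35116 RefSeq windows of this length held TGANTCA. None was found in the windows of MIR17HG, MIR22HG or DLEU2 (2 windows). The same windows were searched on both strands for TGACGTCA (CRE, in 1.85% of all windows), CACGTG (the E-box, 7.26%), TTTNNCGC (E2F, 6.89%) and an NF-kB motif (1.61%). DLEU2 held 1 CACGTG in one window and 1 TTTNNCGC in the other, and no other window of a member held any. The RefSeq starts of all 5 members lie inside their gene models in the count table.

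MIR17HG (chr13:91347686-91397592, GRCh38, plus strand, 5 exon blocks) was lower with Spautin-1. It read 42.7 and 44.9 CPM in vehicle and 24.1 and 27.3 CPM in the treated libraries, which lay well apart. The mean went from 43.8 ± 1.60 to 25.7 ± 2.27 CPM (SD, n = 2 each), a log2 change of -0.77 ± 0.13 (SE; 95% interval -1.05 to -0.49; 1.70-fold lower; adjusted p = 0.00156, edgeR).

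All 6 hairpins of the miR-17-92 cluster lie in an exon of MIR17HG, and only the last passed the filter. MIR92A1 had 37 and 38 counts in vehicle and 15 and 7 with Spautin-1, without overlap, a log2 change of -1.75 (adjusted p = 0.0544, edgeR) that missed the threshold. MIR17 had 8 and 10 counts against 4 and 5, MIR18A 3 and 4 against 2 and 2, and MIR19B1 6 and 15 against 8 and 3. MIR20A had 2 counts in each of 3 libraries and 0 in Spautin-1 library 1, and MIR19A had 2 counts in vehicle library 2 only. At 0 to 15 counts a library, changes in those 5 hairpins were not detectable at this depth.

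A 2639-base gene annotated on the opposite strand, ENSG00000292285, lies wholly inside a MIR17HG exon. It had 601 and 695 counts in vehicle and 328 and 296 with Spautin-1, a log2 change of -1.03 ± 0.16 (SE; adjusted p = 0.000884, edgeR). Host and antisense reads cannot be told apart here without the strand setting. GPC5, a glypican gene on the same strand that begins 1029 bases beyond the annotated end of MIR17HG, moved the other way. Its libraries read 4.32 and 4.09 CPM in vehicle and 13.3 and 14.3 CPM with Spautin-1, a log2 change of 1.71 ± 0.18 (SE; 3.27-fold; adjusted p = 7.305e-05, edgeR). On the left the nearest tested gene, LINC00379, lies 216279 bases away and rose by 2.36 on the log2 scale from 3 and 13 to 34 and 46 counts (adjusted p = 0.0277, edgeR). It was not called without vehicle library 1 (1.72, adjusted p = 0.0766, edgeR) or Spautin-1 library 2 (2.07, adjusted p = 0.174, edgeR), and it stood at 3.64 without vehicle library 2.

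MIR22HG (chr17:1711447-1717174, GRCh38, minus strand, 4 exon blocks) had the lowest CPM of the members and the least secure call. It read 4.43 and 4.30 CPM in vehicle and 2.35 and 2.71 CPM with Spautin-1, again without overlap. The mean went from 4.37 ± 0.0974 to 2.53 ± 0.26 CPM (SD, n = 2 each), a log2 change of -0.79 ± 0.25 (SE; 95% interval -1.34 to -0.24; 1.73-fold lower; adjusted p = 0.0423, edgeR). The call was lost with DESeq2 (adjusted p = 0.0647) and without vehicle library 1 (-0.77, adjusted p = 0.0509), Spautin-1 library 1 (-0.70, adjusted p = 0.216) or Spautin-1 library 2 (-0.89, adjusted p = 0.115, all edgeR). The direction was the same in each. MIR22, the hairpin gene in its exon, had 14 and 18 counts in vehicle and 0 and 9 with Spautin-1 (log2 change -1.75, adjusted p = 0.255, edgeR). That change was -0.75 without Spautin-1 library 1, the library at 0. WDR81 overlaps the end of MIR22HG on the opposite strand without sharing an exon, and its libraries overlapped (log2 change -0.09, adjusted p = 0.747, edgeR), as did those of the neighbour TLCD2 (-0.19, adjusted p = 0.765, edgeR).

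DLEU2 (chr13:49956670-50125720, GRCh38, minus strand, 18 exon blocks) showed no call. It read 21.0 and 23.3 CPM in vehicle and 20.4 and 22.9 CPM with Spautin-1, so the groups overlapped. The log2 change was -0.03 ± 0.14 (SE; adjusted p = 0.899, edgeR), and its 95% interval ran from -0.35 to 0.28. The hairpin genes MIR15A and MIR16-1 had 1 count each over the 4 libraries and MIR3613 had 1 to 3 counts a library. MIR16-1 and MIR3613 lie in introns, and 13 of the 83 bases of MIR15A are exonic, so this count table says nothing of their processing.

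Of 15 genes that overlap DLEU2, 12 are on the opposite strand, and none of the 11 tested was called. DLEU1, the non-coding gene that starts head to head with DLEU2, had a log2 change of -0.03 (adjusted p = 0.919, edgeR). TRIM13, a ubiquitin ligase gene that shares 690 exonic bases with DLEU2, had 0.29 (adjusted p = 0.301, edgeR), and the low-count potassium channel regulator KCNRG had -1.08 (adjusted p = 0.353, edgeR). Leaving out single libraries moved TRIM13 between 0.09 (without Spautin-1 library 2) and 0.46 (without Spautin-1 library 1), and KCNRG between -0.15 (without vehicle library 1) and -2.25 (without Spautin-1 library 1), with no call. Short opposite-strand genes inside DLEU2 exons drew many counts for their size: ENSG00000275559, of 136 bases, had 302 and 358 counts in vehicle and 189 and 277 with Spautin-1. The neighbour SPRYD7 differed between the vehicle libraries (53.8 and 76.4 CPM) and was not called with all 4 libraries (-0.04, adjusted p = 0.875, edgeR). It stood at -0.28 without vehicle library 1 and at 0.23 without vehicle library 2.

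Per kilobase of exon, MIR155HG was the most abundant of the 5 in both groups. In vehicle the mean levels were 13.4 CPM per kilobase for MIR155HG, 3.40 for MIR17HG, 1.73 for DLEU2, 1.40 for MIR22HG and 0.881 for MIR4435-2HG, and the libraries of neighbours in that order did not overlap. With Spautin-1 they were 22.1 for MIR155HG, 1.99 for MIR17HG, 1.69 for DLEU2, 1.58 for MIR4435-2HG and 0.814 for MIR22HG. There the 2 libraries of DLEU2 (1.59 and 1.79) overlapped those of MIR4435-2HG (1.61 and 1.56), so that pair has no clear order. Exon lengths count the bases of all annotated isoforms together, 1776 for MIR155HG and 34231 for MIR4435-2HG, so a gene with many unused exons reads low on this scale.

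Among all genes whose symbols name them as microRNA host genes (MIR...HG), calls went mostly down. The table holds 84, of which 32 were tested, 3 were higher and 9 lower. That is 37.5% called, against 22.0% of all genes tested (11.5% higher and 10.5% lower). The median log2 change was -0.39 against -0.01 over all genes. The list includes 4 members, all called and chosen with earlier results of these data known, so its share called does not test the group. Without the 4 members in that list, 80 remained, 31 of them with no read, and of the 28 tested 1 was higher, 7 were lower and 20 were not called. MIR142HG, host of the blood-cell microRNA miR-142, read 35.8 and 57.2 CPM in vehicle and 12.8 and 12.8 CPM with Spautin-1 (log2 change -1.86 ± 0.20 SE; 3.64-fold lower; adjusted p = 5.948e-05, edgeR). MIRLET7A1HG, a let-7 host, read 9.96 and 8.75 CPM in vehicle and 3.68 and 2.89 CPM with Spautin-1 (log2 change -1.51 ± 0.22 SE; 2.84-fold lower; adjusted p = 0.00058, edgeR). In both genes every treated library lay under every vehicle library. The one further gene called higher was MIR3945HG (1.22, adjusted p = 0.0167, edgeR), which was not called without Spautin-1 library 2 (1.18, adjusted p = 0.0695, edgeR). Without that library the list held 1 higher and 5 lower, without either vehicle library 5 higher and 8 lower, and with DESeq2 3 higher and 6 lower.

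**Figure D2:**
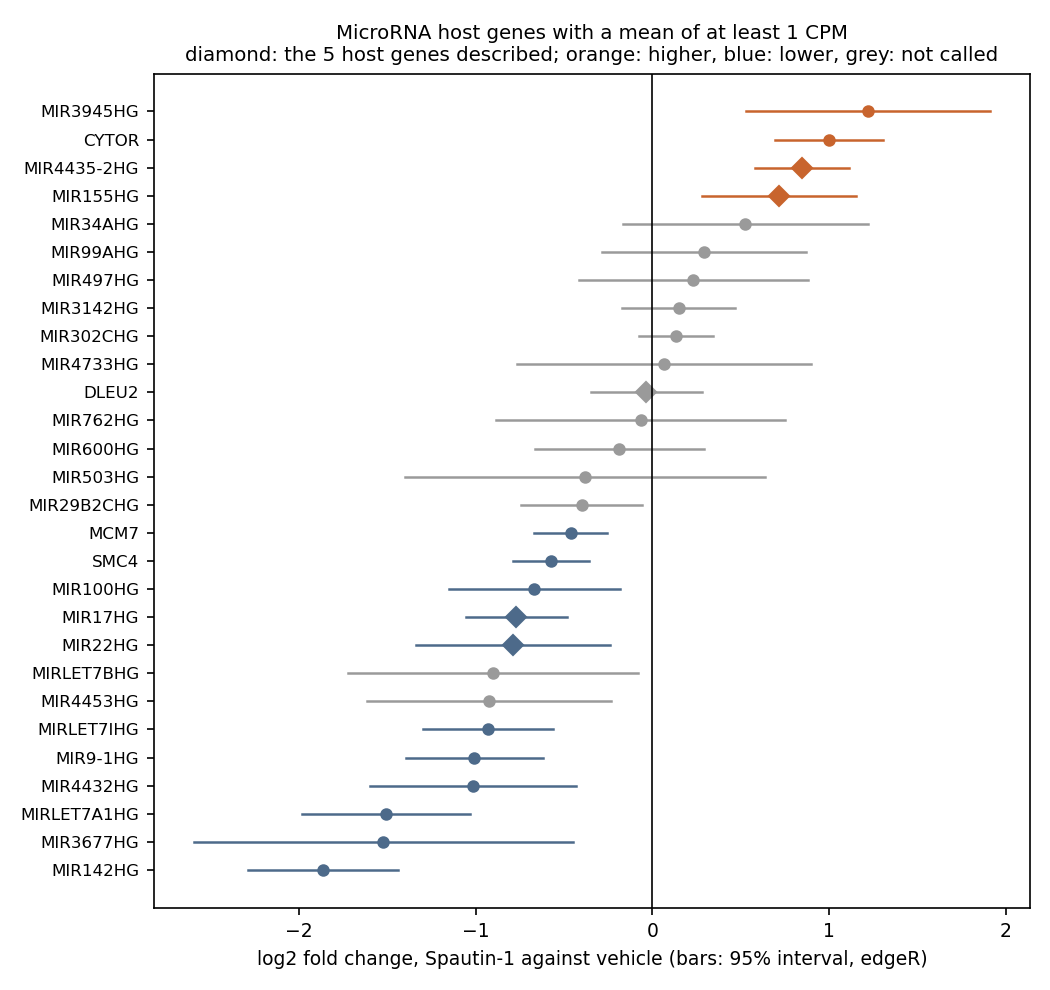
Log2 change (x axis, Spautin-1 over vehicle) of 28 microRNA host genes whose mean reached 1 CPM, CYTOR and DLEU2 included (y axis). Diamonds are the 5 members, circles the others, and bars 95% intervals from edgeR. Orange genes were called higher, blue lower and grey not called. MIR142HG lies farthest left at -1.86, MIR155HG and MIR4435-2HG lie right of 0, and the interval of DLEU2 spans 0.

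SMC4 and MCM7, protein-coding genes whose introns hold clusters related to those of DLEU2 and MIR17HG, fell. SMC4, a condensin subunit whose gene hosts miR-15b and miR-16-2, stood at a mean of 1165 ± 144 CPM in vehicle and 782 ± 45.6 CPM with Spautin-1 (SD, n = 2 each; log2 change -0.58 ± 0.10 SE; 1.49-fold lower; adjusted p = 0.0017, edgeR). MCM7, a subunit of the replicative helicase whose gene hosts miR-106b-25, stood at 294 ± 3.85 and 213 ± 3.41 CPM (SD, n = 2 each; log2 change -0.46 ± 0.10 SE; 1.38-fold lower; adjusted p = 0.00496, edgeR). The call for MCM7 was lost without Spautin-1 library 1 (adjusted p = 0.0690, edgeR) or library 2 (adjusted p = 0.0768, edgeR). MIR497HG, the non-coding host of the related miR-497 and miR-195, was not called (log2 change 0.23, adjusted p = 0.629, edgeR). It turned to -0.16 without vehicle library 1 and stood at 0.79 without vehicle library 2. DLEU2 itself was not called, and its difference from SMC4 was not tested.

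Of 21 tested genes that process microRNAs, 1 was higher, 4 were lower and 16 were not called (23.8% called; median log2 change -0.15), a share near that of all genes. DGCR8, the RNA-binding partner of Drosha, stood at 94.8 ± 4.83 CPM in vehicle and 51.0 ± 6.23 CPM with Spautin-1 (SD, n = 2 each; log2 change -0.90 ± 0.12 SE; 1.86-fold lower; adjusted p = 0.000421, edgeR). DROSHA had a log2 change of -0.16 (adjusted p = 0.349, edgeR). DICER1 had -0.32 (adjusted p = 0.132, edgeR), with 200 and 147 CPM in vehicle and 150 and 129 CPM with Spautin-1. It stood at -0.52 without vehicle library 2 and at -0.08 without vehicle library 1. TNRC6A, a scaffold of the silencing complex, fell from 99.7 and 84.6 to 47.6 and 45.4 CPM (log2 change -0.99; 1.98-fold lower; adjusted p = 0.000213, edgeR). The others called lower were SRSF3 (-0.63, adjusted p = 0.00106, edgeR), a splicing factor, and KHSRP (-0.50, adjusted p = 0.0146, edgeR), which binds let-7 precursors. TUT7, which adds uridines to precursors, was the one called higher (0.48, adjusted p = 0.0155, edgeR). The calls of KHSRP (adjusted p = 0.0792 and 0.0682) and TUT7 (adjusted p = 0.119 and 0.0555, edgeR) were lost without Spautin-1 library 1 or 2. Without vehicle library 2 KHSRP stood at -0.30 and TUT7 at 0.32, and the list then held 1 higher and 7 lower.

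Of 11 tested factors reported to act on MIR155HG, 6 were higher and none was lower (54.5% called, median log2 change 0.55). Of all genes tested 22.0% were called, 11.5% higher. The list was chosen with earlier results of these data known, so its count does not test it. IRF4, a B-cell transcription factor, went from a mean of 31.5 ± 3.87 to 76.3 ± 1.96 CPM (SD, n = 2 each; log2 change 1.28 ± 0.13 SE; adjusted p = 4.342e-05, edgeR). JUN, an AP-1 subunit, went from 85.8 ± 12.2 to 141 ± 0.883 CPM (SD, n = 2 each; log2 change 0.72; adjusted p = 0.00142, edgeR). The AP-1 subunits FOS (2.48, adjusted p = 0.00316, edgeR) and FOSB (2.45, adjusted p = 0.00231, edgeR) rose from low levels, under 1 CPM in both vehicle libraries. Of the NF-kB subunits, NFKB2 rose by 0.71 (adjusted p = 0.00777, edgeR; 0.46 without vehicle library 1) and REL rose by 0.55 (adjusted p = 0.00236, edgeR; adjusted p = 0.0506 without Spautin-1 library 1). RELA had -0.33 (adjusted p = 0.188, edgeR), and stood at -0.63 without vehicle library 1 and at 0.039 without vehicle library 2. NFKB1 had 0.23 (adjusted p = 0.159, edgeR; 0.32 without vehicle library 1), and RELB had 0.09 (adjusted p = 0.784, edgeR). Without vehicle library 1 the list held 8 higher and 1 lower.

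Factors reported for MIR17HG did not move one way. MYC, which is known to activate this host gene, read 69.4 and 88.1 CPM in vehicle and 125 and 129 CPM with Spautin-1 (log2 change 0.69 ± 0.13 SE; adjusted p = 0.00255, edgeR), opposite to MIR17HG. E2F2 fell by 1.45 (adjusted p = 0.00873, edgeR) and E2F3 fell by 0.51 (adjusted p = 0.0170, edgeR). Among 5 tested, 1 was higher and 2 were lower (median -0.30), so 60% were called, against 22.0% of all genes tested. The list held 2 higher without vehicle library 1, 1 lower without Spautin-1 library 1 and none lower without Spautin-1 library 2. E2F2 was not called without Spautin-1 library 2 (-1.04, adjusted p = 0.0643, edgeR), nor E2F3 without Spautin-1 library 1 (adjusted p = 0.116, edgeR) or 2 (adjusted p = 0.21, edgeR). Of 4 factors reported for DLEU2, MYC and HDAC3 (0.47, adjusted p = 0.0194, edgeR) were higher and none was lower (median 0.26). That is 50% called, against 22.0% of all genes tested. HDAC3, a histone deacetylase, was not called without Spautin-1 library 1 (adjusted p = 0.167, edgeR) or 2 (adjusted p = 0.193, edgeR). PAX5, the B-lineage factor, had 0.04 (adjusted p = 0.837, edgeR) and turned to -0.08 without vehicle library 2.

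**Figure D3:**
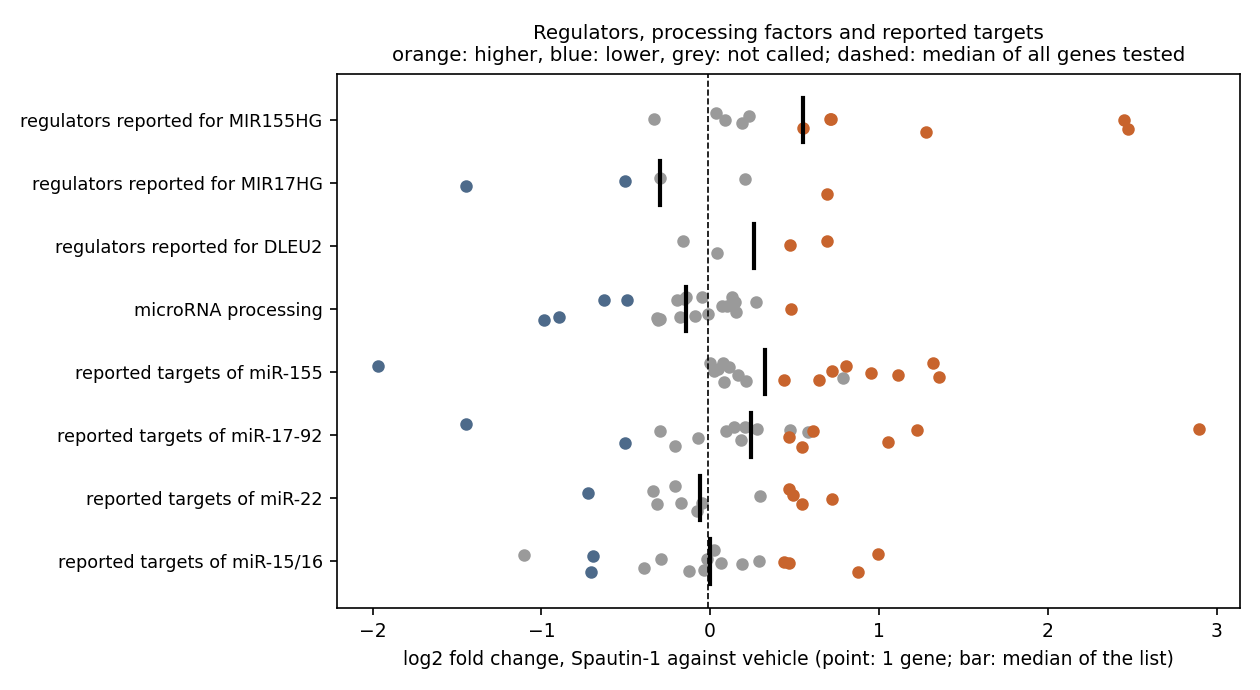
Log2 change (x axis, Spautin-1 over vehicle) of each tested gene in the lists of regulators, processing genes and reported targets (y axis). Each point is 1 gene, orange if called higher, blue if lower and grey if not called. Black bars are list medians and the dashed line is the median of all genes tested, -0.01. The list of regulators reported for MIR155HG holds 6 orange points and no blue one. Over all genes tested 11.5% were called higher and 10.5% lower, and the lists were chosen with earlier results of these data known.

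Reported targets of the hosted microRNAs were read as transcript levels, without any measure of the microRNAs. Matches to a seed were counted in the longest annotated 3′ untranslated region of each target (GENCODE 29). The miR-155 match AGCATTA was in 14 of 18 tested targets, against 12.0% of 12077 genes, and the miR-15/16 match TGCTGCT was in 14 of 16, against 28.2%. The miR-22 match GGCAGCT was in 11 of 12, against 19.3%. At least 1 match to the miR-17, miR-18a, miR-19 or miR-92a seed was in 18 of 18 miR-17-92 targets, against 44.7%. Targets may have been reported because of such matches, and the lengths of the regions were not matched. These shares therefore do not test the lists. For a target that was called higher in each of 3 lists, 1 match is shown per microRNA named. The pairing bases are in capitals, with up to 15 bases before them.
ETS1, miR-155-5p: aatgttgagctaagaAGCATTAa
BCL2L11, miR-17-5p: agtctcctgactagaGCACTTTa
BCL2L11, miR-19a-3p: ctggcttacttgtgtTTTGCACt
BCL2, miR-15a-5p: gaatatccaatcctgTGCTGCTa
These are letters in an annotation and do not show that the microRNA acts there in these cells. Targets called lower hold such matches too, among them IKBKE (miR-155-5p), E2F2 (miR-17-5p and miR-19a-3p) and CCNE1 (miR-15a-5p).

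Of 18 tested miR-155 targets, 8 were higher and 1 was lower (50% called, median log2 change 0.32), and MIR155HG itself was higher. Of all genes tested 22.0% were called, 11.5% higher. The target lists were chosen with earlier results of these data known, so their counts do not test them. ETS1, a lymphoid transcription factor, read 194 and 173 CPM in vehicle and 313 and 291 CPM with Spautin-1 (log2 change 0.72 ± 0.10 SE; 1.65-fold; adjusted p = 0.000542, edgeR). The one lower was IKBKE, a kinase of the interferon pathway, at 4.38 and 4.24 CPM in vehicle and 1.44 and 0.75 CPM with Spautin-1 (log2 change -1.97; 3.91-fold lower; adjusted p = 0.00164, edgeR).

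Of 18 tested miR-17-92 targets, 6 were higher and 2 were lower (median 0.24). That is 44.4% called, against 22.0% of all genes tested. TNFAIP3, which encodes the NF-kB inhibitor A20, went from 22.2 ± 0.259 to 165 ± 0.314 CPM (SD, n = 2 each; log2 change 2.89; adjusted p = 4.414e-08, edgeR). HIF1A, the hypoxia factor, went from 69.5 ± 7.3 to 144 ± 1.48 CPM (SD, n = 2 each; log2 change 1.05; adjusted p = 7.783e-05, edgeR). BCL2L11, described above, was another, while the 2 lower were E2F2 and E2F3. The list held 3 higher and 1 lower without Spautin-1 library 1, and 3 higher and none lower without library 2.

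Of 12 tested miR-22 targets, 4 were higher and 1 was lower (median -0.06). That is 41.7% called, against 22.0% of all genes tested. Among the higher were HDAC6 (0.72, adjusted p = 0.00358, edgeR), a cytoplasmic deacetylase, CDK6 (0.47, adjusted p = 0.0118, edgeR), a G1 kinase, and TET2 (0.49, adjusted p = 0.0160, edgeR), a DNA demethylation enzyme. MAX, the partner of MYC, fell by 0.73 (adjusted p = 0.00178, edgeR). Without Spautin-1 library 1 or 2 only HDAC6 was called higher and MAX lower, and CDK6 then had adjusted p = 0.135 and 0.106 and TET2 0.171 and 0.0885 (edgeR).

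Of 16 tested miR-15/16 targets, 4 were higher and 2 were lower (median 0.00), while DLEU2 was not called. The share called was 37.5%, against 22.0% of all genes tested. BCL2, the anti-apoptotic protein whose gene is a known target of miR-15a and miR-16, read 48.9 and 37.6 CPM in vehicle and 76.4 and 82.5 CPM with Spautin-1 (log2 change 0.88 ± 0.14 SE; adjusted p = 0.00101, edgeR). CDK6 is on this list too, with the G1 cyclin CCND2 (0.99, adjusted p = 0.0483, edgeR) and the checkpoint kinase WEE1 (0.44, adjusted p = 0.0454, edgeR). The 2 lower were the G1 cyclin CCNE1 (-0.71, adjusted p = 0.00639, edgeR) and the phosphatase CDC25A (-0.69, adjusted p = 0.00883, edgeR). Without Spautin-1 library 1 only BCL2 stayed called higher and CCNE1 lower, and without library 2 only BCL2 higher and CDC25A lower. CCND2 was also lost without either vehicle library (adjusted p = 0.0765 and 0.0554, edgeR), and with DESeq2 (adjusted p = 0.0814), and WEE1 stood at 0.27 without Spautin-1 library 2 (adjusted p = 0.52, edgeR). Upper-quartile scaling, library size alone and an offset on gene length each left 2 higher and 2 lower, without CCND2 and WEE1.

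The genes whose centred log2 CPM over the 4 libraries lay nearest to each member were found among about 9091 tested genes of at least 5 CPM, by the root mean square difference. For MIR155HG they were UBALD2 (0.0191), ANKRD37 (0.0378) and NAPSB (0.0638), and these shared the gap between the vehicle libraries: UBALD2 read 27.5 and 46.4 CPM in vehicle and 56.7 and 63.5 CPM with Spautin-1. UBALD2 had a log2 change of 0.70, which was 0.37 without vehicle library 1, 1.13 without vehicle library 2 and not called without Spautin-1 library 2 (adjusted p = 0.0699, edgeR). ANKRD37 (0.75) was not called without vehicle library 1 (0.43, adjusted p = 0.113, edgeR) or Spautin-1 library 2 (adjusted p = 0.167, edgeR) and stood at 1.18 without vehicle library 2. NAPSB had 0.72 and missed the threshold (adjusted p = 0.0577, edgeR). It stood at 0.38 without vehicle library 1 and at 1.18 without vehicle library 2.

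For MIR17HG the nearest were MLLT1 (root mean square difference 0.0165), DCAF4 (0.0232) and PALLD (0.0255). For MIR22HG they were GINS4 (0.0297), MIR17HG (0.0433) and MTERF1 (0.0442), so the 2 host genes that fell had like profiles over these libraries. For MIR4435-2HG they were SNORA40 (0.014), SCPEP1 (0.015) and FEM1C (0.0173), and for DLEU2 GTPBP8 (0.00452), DDOST (0.00929) and CDC16 (0.0156). With 4 libraries in 2 groups, any gene with a like change between the groups scores as near by construction. The calls of DCAF4, PALLD, GINS4 and SCPEP1 were lost without Spautin-1 library 1 (adjusted p = 0.0927, 0.075, 0.0731 and 0.0524, edgeR), and that of DCAF4 also without library 2 (adjusted p = 0.0522, edgeR).

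**Figure D4:**
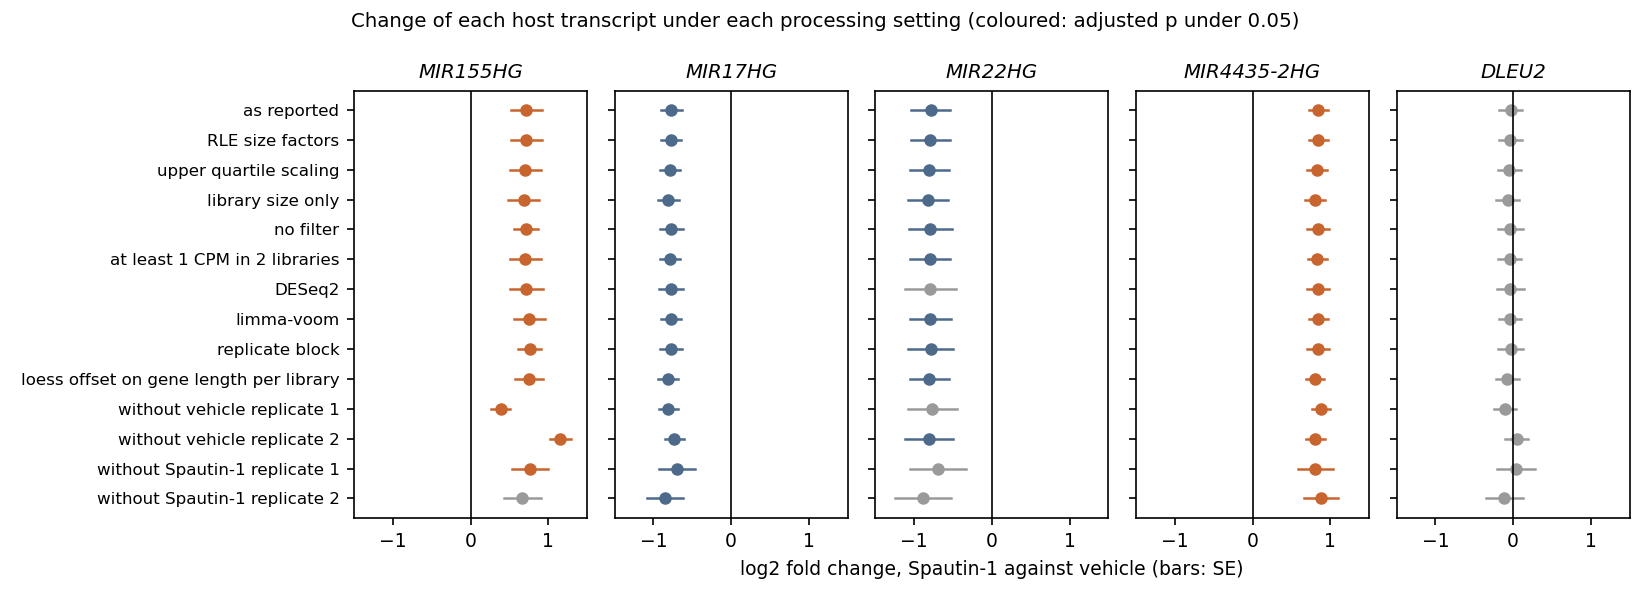
Log2 change of each member (x axis, bars are SE) under the fit as reported and under each other scaling, filter, tool and left-out library (y axis). Coloured points were called at an adjusted p under 0.05 and grey points were not. MIR17HG and MIR4435-2HG are coloured at every setting drawn, MIR155HG spreads from 0.39 to 1.15 as vehicle libraries are left out, and DLEU2 is grey throughout.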

How the data were processed

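Per the labels' protocols, TRIzol RNA went into the VAHTS stranded mRNA kit. The values are whole-number read counts per gene, deposited by the authors in 1 table for 2 vehicle and 2 Spautin-1 libraries with gene coordinates and exonic length. The submitters' processing notes name Trimmomatic 0.36, featureCounts in Subread 1.5.1, edgeR 3.12.1 and GRCh38. The sources used here name no aligner, annotation release, strand setting or handling of reads that match several places.

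Counts were filtered with filterByExpr (minimum count 10, total 15), normalised by TMM and fitted with group as the only term in edgeR 4.0.16 (R 4.3.3), with a two-sided quasi-likelihood F test and Benjamini-Hochberg adjustment over 18368 genes. CPM used TMM-scaled library sizes, and 95% intervals used the fit's 2 residual and 10.2 prior degrees of freedom. No exact permutation test was used, because 2 libraries a group allow no p under 0.333. With 2 libraries a group the precision is limited by their spread (biological coefficient of variation 0.144). Alternatives were other scalings, filters and thresholds, DESeq2 1.42.0, limma-voom 3.58.1, a replicate block and leaving out each library, where the lone library left is assumed to vary like the other group.

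Members and lists were chosen with earlier results of these data known. Named genes were the members, genes inside or overlapping them and the nearest tested gene on each side, the 2 called genes with the smallest p in a list's main direction and 1 in the other, a few fixed genes, and 3 nearest profiles per member. Called genes that complete a count of 5 or fewer, FOS, FOSB, NFKB2, RELA, MIR497HG and the called B-cell markers were named after their values were seen. Promoters and mature microRNAs came from RefSeq (GRCh38.p14). Some named genes are not reported here.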

Additional observations from a re-analysis of the deposited data

How the results depend on the processing

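Deviations of same-numbered libraries had a correlation of -0.0015 over genes, so no large effect shared by replicate number was seen. Whether same-numbered libraries shared a culture or day cannot be told from this. With a replicate block 5100 genes were called against 4045, 58 list genes against 53, and the changes were 0.76 for MIR155HG, -0.77 for MIR17HG, -0.79 for MIR22HG, 0.85 for MIR4435-2HG and -0.03 for DLEU2. No member's call changed under the block, and of the other named genes DICER1, MIR155, MIR92A1, NAPSB and RELA became called. At a threshold of 0.01, 1938 genes and 35 list genes were called, and MIR155HG (0.72) and MIR22HG (-0.79) were not. MIR22HG was also not called with DESeq2 (-0.79). Leaving out each library in turn gave 1847 to 5766 genes called (2476 without Spautin-1 library 1 and 1847 without library 2) and 32 to 61 list genes (32 without Spautin-1 library 2). The members' changes then ranged from 0.39 to 1.15 for MIR155HG, -0.85 to -0.69 for MIR17HG, -0.89 to -0.70 for MIR22HG, 0.81 to 0.88 for MIR4435-2HG and -0.11 to 0.044 for DLEU2, where the sign turned without vehicle library 2 or Spautin-1 library 1. The count rose without a vehicle library and fell without a Spautin-1 library, and the cause was not tested. Of 56 other named genes called, 39 stayed called without Spautin-1 library 1 and 37 without library 2, against 52 and 55 without vehicle library 1 and 2, and none turned its sign. Some uncalled genes changed sign when a library was left out: RELB ranged from -0.13 to 0.34, RELA from -0.63 to 0.039, MIR497HG from -0.16 to 0.79, PAX5 from -0.083 to 0.18, DLEU1 from -0.11 to 0.050, SPRYD7 from -0.28 to 0.23, WDR81 from -0.19 to 0.029, TLCD2 from -0.43 to 0.0070, ACOXL from -0.51 to 1.21, ANAPC1 from -0.10 to 0.030, GTPBP8 from -0.11 to 0.040, DDOST from -0.12 to 0.046 and CDC16 from -0.15 to 0.035. A loess offset on gene length turned PAX5 to -0.022 and BUB1 to -0.0030. Depth limits the hairpin genes of MIR17HG, MIR22HG and DLEU2, most of which had under 20 counts a library.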
